A study of Mus musculus with 2 samples.

Results

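DNA replication and mitosis genes were examined in the lens of C57BL/6 mice aged 60 days after birth. The members were 31 named genes, found by their symbols among the 21673 genes of the deposited table, and all 31 were present. Of these, 10 act in DNA synthesis (Mcm2 to Mcm7, Cdc45, Pcna, Rrm2 and Tyms, called replication genes) and 21 in the G2 and M phases or their control (called mitosis genes). The Msx2 CKO library came from mice with the genotype Le-Cre+/- Msx2fl/fl, in which both Msx2 copies carry loxP sites and Cre recombinase is expressed from the Le-Cre transgene. Le-Cre is driven by a regulatory region of Pax6 and is active in the lens and in other eye tissues of surface ectoderm origin. The Msx2 WT library came from Msx2fl/fl mice without Cre, so the floxed alleles are shared and the presence of Cre differs together with the loss of Msx2. Each genotype had 1 library, and the animals per library are not stated. Hence the design holds no replicate check on any difference, and none was tested across animals.

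The adult lens grows slowly throughout life. Its dividing cells are epithelial cells on the anterior surface, mainly in the germinative zone near the equator, and their daughters leave the cell cycle and elongate into fibre cells. A cell that prepares to divide loads the MCM helicase onto origins and makes deoxynucleotides, and E2F factors drive that gene set. The genes of G2 and mitosis are transcribed later in the cycle, through MuvB complexes with B-MYB and FOXM1, so the 2 sets need not change together. In whole lens RNA, fewer dividing cells and less RNA per dividing cell cannot be told apart.

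The values are FPKM, that is, fragments per kilobase of gene, scaled to an adjusted library size. Whole reads were recovered from them, 17165504 in Msx2 CKO and 20784737 in Msx2 WT. Msx2 itself had 3 reads in Msx2 CKO and 311 in Msx2 WT, 159-fold lower (95% counting interval 53.8 to 774). The libraries also differed in sex-linked transcripts: Xist had 16251 reads in Msx2 CKO and 35 in Msx2 WT, and the Y-linked gene Eif2s3y had 0 and 819. The part of these differences in the results was not tested. All ratios are Msx2 CKO over Msx2 WT, and intervals are exact 95% intervals that cover counting error only.

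The replication and mitosis genes were expressed at low levels in both libraries. Their median was 0.541 FPKM in Msx2 CKO and 0.850 FPKM in Msx2 WT, against 2.10 and 1.83 FPKM for the 16321 genes with at least 10 reads over both libraries. Only 8 of 31 reached 1 FPKM in Msx2 CKO and 13 in Msx2 WT. Replication genes were the more abundant, with a median of 1.06 FPKM in Msx2 CKO and 1.33 FPKM in Msx2 WT, whereas mitosis genes had 0.338 and 0.616 FPKM. All 31 had at least 10 reads, but 6 had fewer than 50, and their ratios are imprecise.

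**Figure D1:**
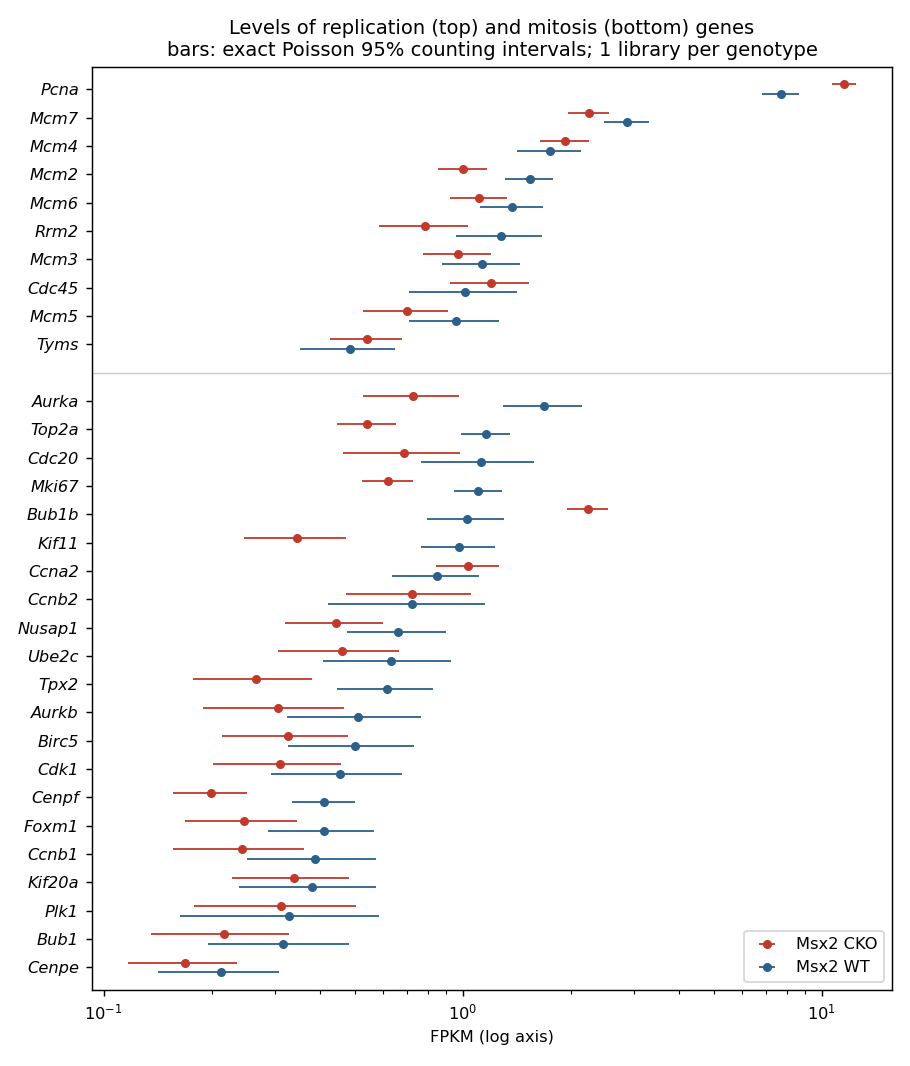
Levels of the 31 genes in FPKM on a log axis, with the Msx2 CKO library above the Msx2 WT library for each gene and exact Poisson 95% counting intervals as bars. Pcna stands apart at 11.5 FPKM in Msx2 CKO and 7.70 FPKM in Msx2 WT, and Cenpe is the lowest gene at 0.169 and 0.213 FPKM.

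Most of these genes were lower in the Msx2 CKO library than in the Msx2 WT library relative to the rest of the transcriptome. Of 31, 25 had a ratio under the median ratio of all 16321 genes and 6 had one above it. The median log2 ratio was -0.55, against 0.05 for all genes, a gap of -0.59. It was -0.27 for the replication genes and -0.61 for the mitosis genes. The gap does not depend on how the 2 libraries are scaled to each other, but the sign of the ratios does. By library totals, in place of the deposited scaling, every log2 ratio was higher by 0.89, which placed the medians at 0.62 for replication genes, 0.28 for mitosis genes and 0.94 for all genes.

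By the deposited scaling 5 members were at least 2-fold lower in Msx2 CKO, which is 16.1% of 31, while 6.2% of all genes were. These were the mitosis genes Kif11, Tpx2, Aurka, Top2a and Cenpf. The gene Bub1b was at least 2-fold higher, 3.23% of 31, while 17.7% of all genes were. No replication gene reached 2-fold in either direction. The counting interval lay wholly below 1 for 10 members, 32.3% against 22.6% of all genes, and wholly above 1 for Bub1b and Pcna, 6.45% against 28.4%. For the other 19 members it included 1. Whether an interval leaves out 1 depends on the number of reads, and the median gene had 194 reads in Msx2 CKO and 106 in Msx2 WT, while the median member had 43 and 45.

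By library totals 6 members were at least 2-fold higher in Msx2 CKO (Bub1b, Ccna2, Cdc45, Mcm4, Pcna and Tyms), where 45.4% of all genes were, and 0 were 2-fold lower, where 1.56% were. Intervals lay above 1 for 9 members, against 79.4% of all genes, and below 1 for Kif11 alone, against 2.6%. By library totals that leave out 16 crystallin genes, Bub1b was 2-fold higher (background 21.4%) and Kif11 2-fold lower (4.06%), with 4 intervals above 1 (45.7%) and 7 below (11.5%). By median-of-ratios scaling the member counts equalled those of the deposited scaling, at 1 higher (17.6%) and 5 lower (6.27%), with 2 intervals above 1 (27.7%) and 10 below (23.5%).

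**Figure D2:**
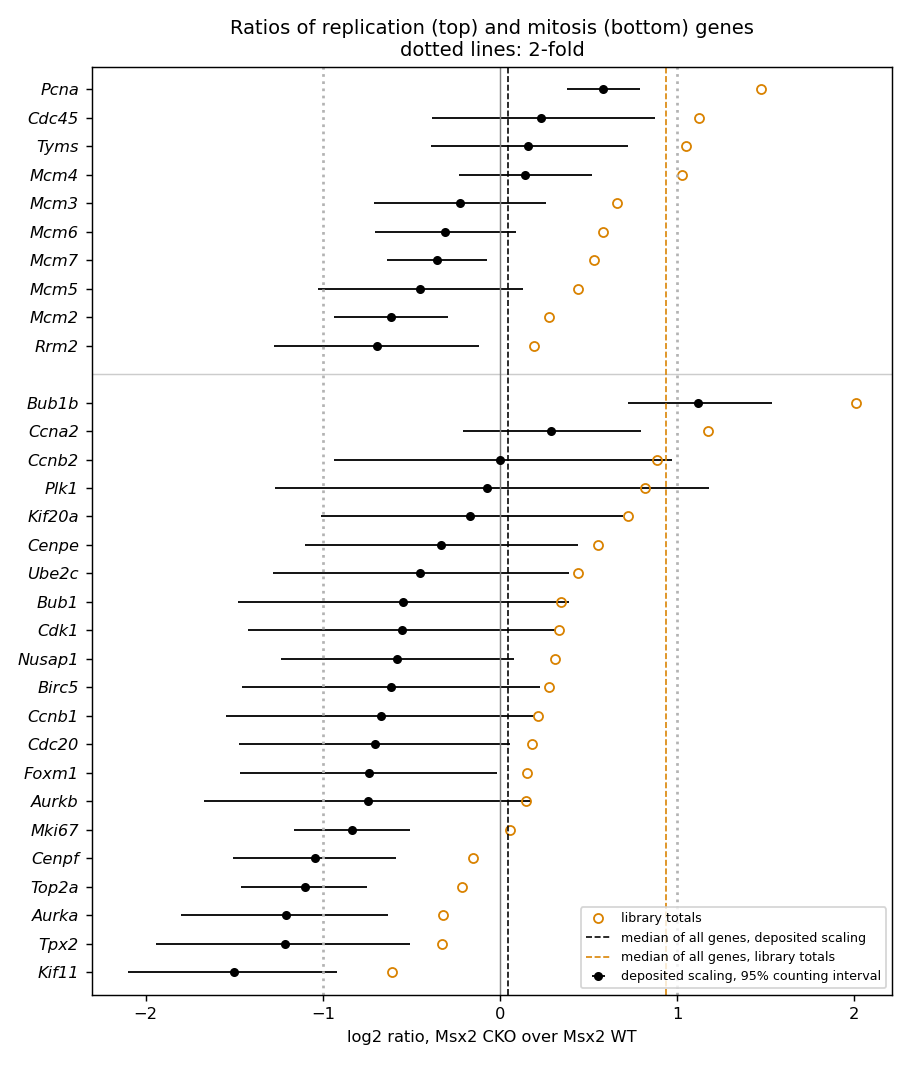
Log2 ratios of Msx2 CKO over Msx2 WT for each gene by the deposited scaling (filled, with 95% counting intervals) and by library totals (open), with the median of all genes under each scaling as a dashed line. Most points lie left of their dashed line under both scalings, with Bub1b farthest to the right of it and Kif11 farthest to the left.

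Promoters are shown for the genes at the ends of this range, since the 2 gene sets are known to be driven through different promoter elements. Of 31 genes 25 had an entry in the RefSeq promoter table (GRCm38.p6), which holds 250 bases before to 50 after each annotated start. Aurkb, Ccna2, Foxm1, Kif20a, Mcm4 and Tpx2 had none. A member was counted when any of its windows held a match, whereas the share of all windows counts each window singly. Searched on both strands, the element TTTGAA (the CHR, bound by MuvB complexes) was found in 11 of 16 mitosis genes, 2 of 9 replication genes and 17.9% of all 32851 windows. An E2F site, written as TTTGGCGC, TTTCCCGC, TTTGCCGC or TTTCGCGC, was found in 1 of 16 mitosis genes, 4 of 9 replication genes and 2.26% of all windows. The pentamer CCAAT was found in 14 of 16, 8 of 9 and 37.4%. The replication genes with an E2F match were Mcm3, Mcm5, Mcm6 and Mcm7, and the mitosis gene was Cdk1. The 3 genes with the lowest ratios among those with an entry, the 2 with the highest, and Mcm6, as an example with E2F matches, are given below as the 200 bases before the start, with matches to any of the 3 elements in capitals.
Kif11, chr19:37376182-37376381, plus strand: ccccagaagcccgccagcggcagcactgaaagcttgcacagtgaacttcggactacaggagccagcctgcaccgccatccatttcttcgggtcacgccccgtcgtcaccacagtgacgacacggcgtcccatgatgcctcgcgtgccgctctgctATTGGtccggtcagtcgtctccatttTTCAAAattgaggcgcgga
Aurka, chr2:172370571-172370770, minus strand: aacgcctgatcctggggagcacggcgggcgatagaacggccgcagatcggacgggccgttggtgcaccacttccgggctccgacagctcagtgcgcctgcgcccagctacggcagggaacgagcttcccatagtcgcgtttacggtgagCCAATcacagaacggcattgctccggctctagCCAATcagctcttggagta
Top2a, chr11:99024190-99024389, minus strand: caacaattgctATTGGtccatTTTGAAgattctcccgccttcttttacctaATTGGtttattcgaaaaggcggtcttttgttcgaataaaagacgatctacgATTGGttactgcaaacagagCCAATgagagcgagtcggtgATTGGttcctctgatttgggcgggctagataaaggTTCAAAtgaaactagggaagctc
Bub1b, chr2:118598011-118598210, plus strand: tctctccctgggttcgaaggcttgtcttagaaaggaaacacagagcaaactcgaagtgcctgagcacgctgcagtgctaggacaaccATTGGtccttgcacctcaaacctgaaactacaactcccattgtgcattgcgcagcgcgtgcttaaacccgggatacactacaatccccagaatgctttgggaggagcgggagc
Pcna, chr2:132253181-132253380, minus strand: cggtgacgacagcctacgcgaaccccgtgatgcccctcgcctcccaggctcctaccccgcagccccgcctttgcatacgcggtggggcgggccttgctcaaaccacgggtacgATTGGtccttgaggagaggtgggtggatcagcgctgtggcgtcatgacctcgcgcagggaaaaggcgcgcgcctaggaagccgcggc
Mcm6, chr1:128359706-128359905, minus strand: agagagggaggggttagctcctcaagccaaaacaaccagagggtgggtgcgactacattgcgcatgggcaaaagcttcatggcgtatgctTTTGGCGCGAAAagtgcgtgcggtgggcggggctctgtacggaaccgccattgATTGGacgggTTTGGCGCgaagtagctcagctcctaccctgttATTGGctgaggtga
Kif11, Top2a, Aurka and Bub1b all held a CHR match. It lay before the start in Kif11 and Top2a, and 33 and 41 bases after the start, outside the stretch shown, in Aurka and Bub1b. These letters were thus present in the gene with the highest ratio as well as in 3 of the lowest. Pcna held a CCAAT match and neither of the other 2. In Mcm6 the first capital run is formed by 2 E2F matches on opposite strands that overlap. These are matches of letters. Binding was not measured, and no relation of the matches to the ratios was tested.

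The MCM genes encode the 6 subunits of the replicative helicase, and they kept a similar order of levels in both libraries. In Msx2 CKO, Mcm7 was highest at 2.24 FPKM (1.96 to 2.55) and Mcm4 next at 1.93 (1.65 to 2.25), with overlapping Poisson intervals. Mcm6, Mcm2, Mcm3 and Mcm5 followed at 1.11, 1.003, 0.969 and 0.7003 FPKM. The intervals of these 4 overlapped from one to the next, while that of Mcm6 (0.921 to 1.33) lay below that of Mcm4. In Msx2 WT, Mcm7 was at 2.87 FPKM (2.48 to 3.30), above Mcm4 at 1.75 (1.42 to 2.14). Mcm2, Mcm6, Mcm3 and Mcm5 followed at 1.53, 1.38, 1.13 and 0.957 FPKM, again with overlapping neighbours.

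The helicase genes differed modestly between the libraries, and not all alike. Mcm2 had 163 reads in each library and was 1.53-fold lower (1.22 to 1.91) by the deposited scaling, with a ratio of 1.21 (0.969 to 1.51) by library totals. Mcm7 was 1.28-fold lower (1.05 to 1.56) on 232 and 194 reads, but its ratio was 1.45 (1.19 to 1.76) by library totals. Mcm4 had a ratio of 1.102 (0.851 to 1.43) on 162 and 96 reads. Mcm4 took 19.8% of the reads of the 6 genes in Msx2 CKO (17.1 to 22.7) and 14.4% in Msx2 WT (11.8 to 17.3). Mcm2 took 19.9% (17.2 to 22.8) in Msx2 CKO and 24.5% (21.3 to 27.9) in Msx2 WT. The intervals of these shares overlap slightly. Mcm3, Mcm5 and Mcm6 had ratios of 0.854, 0.732 and 0.807, and their intervals included 1. Summed over the 6 genes, 819 reads in Msx2 CKO and 666 in Msx2 WT gave a ratio of 0.803 (0.724 to 0.891), or 1.49 (1.34 to 1.65) by library totals.

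Cdc45, the partner that joins MCM and GINS in the active helicase, was at 1.20 FPKM in Msx2 CKO (63 reads) and 1.02 FPKM in Msx2 WT (35 reads). Its ratio was 1.18 (0.766 to 1.83). The nucleotide genes differed from each other. Rrm2, the S phase subunit of ribonucleotide reductase, was at 0.788 FPKM in Msx2 CKO and 1.28 FPKM in Msx2 WT, 1.62-fold lower (1.08 to 2.42), with a ratio of 1.14 (0.764 to 1.71) by library totals. Tyms, which encodes thymidylate synthase, was at 0.541 and 0.484 FPKM, with a ratio of 1.12 (0.764 to 1.65).

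Pcna, the sliding clamp of DNA polymerases, which also serves in DNA repair, was the most abundant member and the replication gene with the highest ratio. It was at 11.5 FPKM (647 reads) in Msx2 CKO and 7.70 FPKM (282 reads) in Msx2 WT, 1.499-fold higher (1.30 to 1.73). Pcna took 39.0% of the reads of replication genes in Msx2 CKO (36.7 to 41.4) and 26.1% in Msx2 WT (23.5 to 28.8), a comparison within each library that scaling cannot alter. The copy Pcna-ps2 had 3 and 4 reads. With Pcna the summed replication genes had a ratio of 1.0005 (0.926 to 1.08), and without it 0.825 (0.751 to 0.906).

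Among the mitosis genes, 3 genes of the spindle, Kif11, Tpx2 and Aurka, had the lowest ratios. Kif11, the kinesin that pushes spindle poles apart, was at 0.346 FPKM (39 reads) in Msx2 CKO and 0.979 FPKM (72 reads) in Msx2 WT, 2.83-fold lower (1.89 to 4.29). Tpx2, which targets and activates Aurora A on the spindle, was at 0.265 FPKM in Msx2 CKO and 0.616 FPKM in Msx2 WT, 2.32-fold lower (1.42 to 3.85). Aurka, the gene of that kinase, was at 0.727 and 1.68 FPKM, 2.31-fold lower (1.55 to 3.48). By library totals the ratio of Kif11 was 0.656 (0.432 to 0.982), the lowest of all members and the only one with an interval below 1, and those of Tpx2 and Aurka were 0.798 (0.482 to 1.30) and 0.801 (0.532 to 1.20). Kif11 took 3.48% of the reads of mitosis genes in Msx2 CKO (2.48 to 4.72) and 6.80% in Msx2 WT (5.36 to 8.49).

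Genes of chromosome structure and of the proliferation marker set were lower as well by the deposited scaling. Top2a, which encodes the topoisomerase that untangles sister chromatids, was at 0.541 FPKM (114 reads) in Msx2 CKO and 1.16 FPKM (160 reads) in Msx2 WT, 2.15-fold lower (1.68 to 2.76). Mki67, the gene of the Ki-67 antigen, was at 0.620 FPKM (146 reads) in Msx2 CKO and 1.11 FPKM (170 reads) in Msx2 WT, 1.78-fold lower (1.42 to 2.24). Cenpf, whose product binds kinetochores in late G2 and mitosis, was at 0.200 and 0.412 FPKM, 2.06-fold lower (1.505 to 2.84). Foxm1, the transcription factor of the G2 and M genes, was at 0.245 and 0.410 FPKM, 1.67-fold lower (1.01 to 2.76). By library totals the ratios of Top2a, Mki67, Cenpf and Foxm1 were 0.863, 1.04, 0.899 and 1.11, and all 4 intervals included 1.

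Bub1b stood apart from the other mitosis genes. It encodes BUBR1, a component of the mitotic checkpoint complex that restrains the anaphase promoting complex. It was at 2.23 FPKM (223 reads) in Msx2 CKO and 1.03 FPKM (67 reads) in Msx2 WT, 2.17-fold higher (1.65 to 2.90), and 4.03-fold higher (3.05 to 5.38) by library totals. Bub1, the related checkpoint kinase gene, was at 0.216 FPKM (22 reads) in Msx2 CKO and 0.316 FPKM (21 reads) in Msx2 WT, with a ratio of 0.684 (0.359 to 1.31). Bub1b took 19.9% of the reads of mitosis genes in Msx2 CKO (17.6 to 22.3) and 6.33% in Msx2 WT (4.94 to 7.97), and by FPKM it was the most abundant mitosis gene in Msx2 CKO and the fifth in Msx2 WT. Bub1b (ENSMUSG00000040084) lies on the plus strand of chromosome 2 from 118598211 to 118641591 (GRCm38), and its exons overlap those of no other annotated gene.

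By the deposited scaling the intervals of the cyclins and their kinase all included 1. Ccna2, the cyclin A of S phase and G2, was at 1.04 FPKM (99 reads) in Msx2 CKO and 0.850 FPKM (53 reads) in Msx2 WT, with a ratio of 1.22 (0.866 to 1.74). Ccnb1, a cyclin B of mitotic entry, was at 0.244 and 0.388 FPKM on 24 and 25 reads, and Ccnb2, the other, at 0.722 and 0.723 FPKM on 26 and 17 reads. Their ratios were 0.627 (0.343 to 1.14) and 0.999 (0.522 to 1.96). Cdk1, the kinase these cyclins activate, was at 0.311 and 0.456 FPKM, a ratio of 0.681 (0.373 to 1.24). Ccna2 took 66.4% of the reads of these 3 cyclins in Msx2 CKO (58.3 to 74.0) and 55.8% in Msx2 WT (45.2 to 66.0), with overlapping intervals. The pseudogene Ccnb2-ps had 65 and 34 reads, more than Ccnb2 itself. How reads that match both copies were counted is not stated.

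The remaining mitosis genes rested on 16 to 42 reads in Msx2 CKO and 11 to 41 in Msx2 WT, and each interval included 1. Plk1, the Polo kinase of mitotic entry and exit, had 16 and 11 reads and a ratio of 0.9503 (0.414 to 2.26). The chromosomal passenger genes Aurkb and Birc5, which encode Aurora B and survivin, had ratios of 0.596 and 0.653. Cdc20 and Ube2c, an activator and an E2 enzyme of the anaphase promoting complex, had 0.612 and 0.732. Nusap1, a microtubule bundling protein gene, had 0.669, and the motor genes Cenpe and Kif20a had 0.793 and 0.891. Taken 1 by 1, no difference of these 8 genes was detectable at this depth. All 8 ratios were under 1 by the deposited scaling and above 1 by library totals, and their summed reads were not examined.

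The balance between the replication and mitosis genes differed between the libraries. Mitosis genes took 40.4% of all member reads in Msx2 CKO (38.5 to 42.2) and 49.5% in Msx2 WT (47.3 to 51.6). Leaving out Pcna and Bub1b, the 2 genes with an interval above 1, a choice made after their values were seen, the shares were 47.1% (44.8 to 49.4) and 55.4% (53.0 to 57.7). Leaving out Pcna alone, they were 52.6% (50.5 to 54.8) and 57.0% (54.7 to 59.2), and these intervals overlap slightly. As reads were summed within each library, scaling between libraries does not enter these shares. The summed mitosis genes, with 1122 reads in Msx2 CKO and 1059 in Msx2 WT, had a ratio of 0.692 (0.636 to 0.754), and 0.592 (0.540 to 0.649) without Bub1b. By library totals these were 1.28 (1.18 to 1.40) and 1.097 (1.002 to 1.20).

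**Figure D3:**
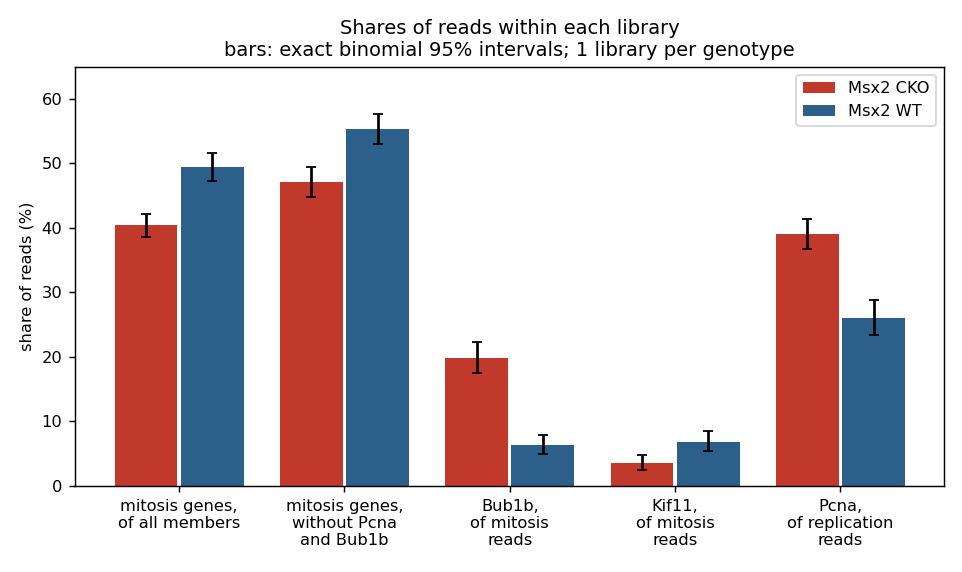
Shares of reads within each library, in percent with exact binomial 95% intervals, for Msx2 CKO (left bar of each pair) and Msx2 WT (right bar). Mitosis genes took 40.4% of member reads in Msx2 CKO and 49.5% in Msx2 WT, while Bub1b and Pcna took larger shares of their own sets in Msx2 CKO.

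In 11 wider lists of cell cycle genes, 222 genes were present and 220 had at least 10 reads. Of the 220, 8 were at least 2-fold higher (3.64%, against 17.7% of all genes) and 17 at least 2-fold lower (7.73%, against 6.2%). The share of lower genes was thus near that of all genes. With at least 50 reads, 7 of 171 were higher and 5 lower, and the shares of all genes at that minimum were not computed. The median log2 ratio of the 220 genes was -0.12, closer to the 0.05 of all genes than that of the members was. Median log2 ratios ran from -0.01 for origin licensing and firing and for the E2F, pocket protein and MuvB factors to -0.25 for kinetochore genes, spindle motors and cytokinesis, and S phase checkpoint genes. By library totals all 11 medians were above 0, from 0.64 to 0.88.

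The counts past 2-fold in single lists are to be read against the 17.7% of all genes that were higher and the 6.2% that were lower. Both shares are for genes with at least 10 reads. Origin and fork genes had medians of -0.01 and -0.02. Of 26 licensing and firing genes 3 were at least 2-fold lower (11.5%) and none higher. Dbf4, the activating subunit of the Cdc7 kinase that fires origins, had 58 reads in Msx2 CKO and 133 in Msx2 WT, 3.51-fold lower (2.56 to 4.86). The kinase gene Cdc7 itself had a ratio of 1.76 (1.25 to 2.499) on 129 and 48 reads, so the 2 subunits differed in opposite directions. Of 25 polymerase, clamp loader and Okazaki fragment genes 2 were higher (8%) and none lower, Pold4, a small subunit of DNA polymerase delta, by 2.38-fold (1.77 to 3.25) and the primase gene Prim2 by 2.33-fold (1.27 to 4.57). Of 15 nucleotide supply genes 1 was higher and none lower. This was Impdh1, an enzyme of guanine nucleotide synthesis that is abundant in photoreceptors, by 5.75-fold (4.94 to 6.74). No gene among 9 cyclins and kinases of G1 and S phase reached 2-fold. Of 19 E2F, pocket protein and MuvB factors 1 was lower, Mybl2, which encodes B-MYB, by 2.06-fold (1.21 to 3.56).

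Of 24 spindle motor and cytokinesis genes 3 were lower (12.5%) and 1 higher (4.17%). Kif22, a chromosome-bound kinesin gene, was 2.85-fold lower (2.25 to 3.63) and Prc1, the midzone crosslinker gene, 2.30-fold lower (1.82 to 2.92). Cit, which encodes citron kinase and is also expressed in neurons, was 2.43-fold higher (1.70 to 3.55). Of 28 kinetochore genes 6 were lower (21.4%) and 1 higher (3.57%). Of the 13 with at least 50 reads 1 was lower and 1 higher, with no share of all genes computed at that minimum. Spag5, a spindle and kinetochore protein gene, was at 5.89 FPKM in Msx2 CKO and 12.4 FPKM in Msx2 WT, 2.11-fold lower (1.92 to 2.31). Spc25, of the NDC80 complex, was 3.80-fold higher (2.41 to 6.28) on 128 and 22 reads. Of 18 mitotic entry and checkpoint genes 2 were higher (11.1%) and 1 lower (5.56%). The higher genes were the phosphatase gene Cdc25b, by 2.31-fold (1.33 to 4.22), and the shugoshin gene Sgol1, by 2.32-fold (1.16 to 5.01). Of 20 cohesin and condensin genes 2 were lower (10%) and none higher, and of 17 S phase checkpoint genes 1 was lower and 1 higher (5.88% each), all 4 on fewer than 50 reads. None of the 19 genes of the anaphase promoting complex and mitotic exit reached 2-fold.

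**Figure D4:**
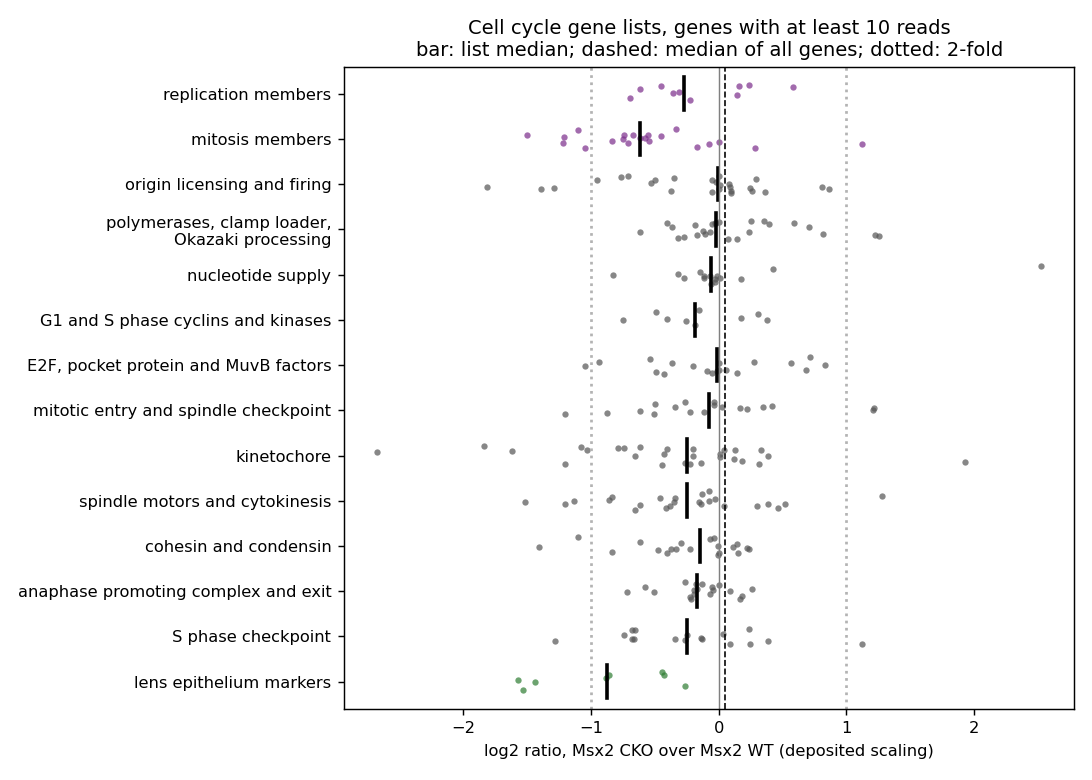
Log2 ratios by the deposited scaling for the members, 11 wider cell cycle lists and lens epithelium markers, 1 point per gene with at least 10 reads and a bar at each list median. The mitosis genes have the lowest median of the cell cycle lists at -0.61, and lens epithelium markers lie lower still at -0.87.

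Markers of the lens epithelium, which holds the dividing cells, were lower by the deposited scaling, whereas 5 of 8 had ratios above 1 by library totals. All 8 lens epithelium markers had intervals below 1, with ratios from 0.337 for Gja1 to 0.835 for Cdh1 (1 of the 8, Cryab, is also a fibre crystallin) and a median log2 ratio of -0.87, or 0.02 by library totals. Foxe3, a transcription factor of these cells, was at 63.0 FPKM in Msx2 CKO and 116 FPKM in Msx2 WT, a ratio of 0.542 (0.503 to 0.584). All 10 fibre markers had intervals below 1. Their FPKM summed to 47455 in Msx2 CKO and 210079 in Msx2 WT. Markers of retina, leukocytes, endothelium and erythroid cells were higher in the Msx2 CKO library. The 10 photoreceptor markers summed to 819 FPKM in Msx2 CKO and 21.3 FPKM in Msx2 WT, with all 10 at least 2-fold higher. Inner retina and glia markers summed to 168 and 44.5 FPKM (9 of 9 with at least 10 reads higher, Pax2 at 0 reads in Msx2 WT), and leukocyte markers to 48.5 and 8.76 FPKM (9 of 10 higher). Endothelial markers summed to 7.70 and 1.99 FPKM (5 of 6 higher, Emcn at 0 reads in Msx2 WT). Erythroid markers summed to 2.88 and 0.386 FPKM (2 of 2 higher, Hba-a2 at 0 reads in Msx2 WT). Cornea and conjunctiva markers did not share a direction. Aldh3a1 was at 169 FPKM in Msx2 CKO and 11.6 FPKM in Msx2 WT. It made up most of the sums of 169.7 and 13.6 FPKM. Krt4, the other with at least 10 reads, had a ratio of 0.513 (0.338 to 0.776), and Krt14 had 0 reads in Msx2 CKO and 2 in Msx2 WT. The part of these cells in the ratios of the lens epithelium markers, and in those of the replication and mitosis genes, was not tested.

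Whether counting used strand is not stated, and 10 members share exonic bases with a neighbour. By the exons of GENCODE M21, the overlap was largest for Kif20a with Cdc23 on the opposite strand (29.3% of the exons of Kif20a). Ube2c with Tnnc2 (22.8%) and Ccna2 with Exosc9 (12.5%) followed. Without strand, the reads of these pairs in the shared bases cannot be told apart. Cdc23 had 497 reads in Msx2 CKO and 379 in Msx2 WT, and Exosc9 136 and 76. None of the 6 members past 2-fold except Top2a overlapped an annotated gene, and its overlap was with a snoRNA (Gm23451, 1.35% of its exons). The deposited gene length equalled the total of the M21 exons for 24 of 31 members. It was shorter for Kif20a (3796 against 4338 bases) and Kif11 (4819 against 7461 bases), so the exons counted there were not those of M21.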

How the data were processed

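mRNA sequencing of mouse lens was analysed from 2 libraries, 1 per genotype, from mice of postnatal day 60. Tools listed, with no role, are HTSeq 0.6.0, STAR 2.5.1b and DESeq2 1.10.1, per the submitters' processing notes (genome build not given in the sources used here). Per gene, the authors deposited FPKM with gene length in bases. The unit was inferred from the values, since value times gene length was a whole multiple of 1 step in each library for 100% of values within 0.001 of a read. The recovered reads sum to less than the library size that the deposited FPKM imply in Msx2 CKO and to more in Msx2 WT (ratios 1.36 and 0.735), which equal trimmed-mean-of-M-values (TMM) factors computed here from the recovered reads. No listed gene had a sum under 2 reads. All 31 member identifiers were found in GENCODE M21 (GRCm38) on the same chromosome, and coordinates are those of the table on that build.

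Ratios were Msx2 CKO over Msx2 WT on the deposited scaling, with exact conditional binomial (Clopper-Pearson) 95% intervals, for genes with at least 10 reads over both libraries. A difference past 2-fold was counted. With 1 library per genotype no test across animals exists and no p-value was computed, and the count model meant for replicated reads was not run. The members and lists were chosen with earlier results of these data known. All members are named. Of each wider list the rule allowed the 2 highest and 2 lowest genes with at least 50 reads, and the text gives those past 2-fold and Cdc7. Gene overlaps and promoter elements were read from GENCODE M21 and RefSeq. Alternatives were library totals, totals without 16 crystallin genes, median-of-ratios size factors, TMM, other read minimums, pseudocounts of 1 and 0.1 FPKM, and leaving out single genes. The recovery of reads and the intervals were tested on simulated data with counting error only and a known scaling. That simulation covers neither spread between animals nor the choice of scaling. Python 3.11.15, pandas 2.3.3 and scipy 1.17.1 were used.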

Additional observations from a re-analysis of the deposited data

How the results depend on the processing

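No paired analysis was possible because each genotype has 1 library, and for the same reason no replicate could be left out. Median-of-ratios scaling changed no count of members, nor did a minimum of 50 reads. TMM gave the same scaling as the deposited values, and all 31 members had at least 10 reads. TMM and dropping the read minimum therefore could not change a count of members. By library totals the summed ratio was 1.85 for replication and 1.28 for mitosis genes, the medians were 0.62 and 0.28 (log2), 6 members were at least 2-fold higher and 0 lower, and 9 had intervals above 1 and 1 below. By totals without crystallins the sums were 1.19 and 0.822, the medians -0.021 and -0.37, 1 member was at least 2-fold lower (Kif11), and 4 had intervals above 1. Neither of these scalings turned the direction of a member past 2-fold by the deposited scaling. With 1 added to each FPKM and a mean FPKM of 1 or more required, 8 of 10 replication genes gave a median of -0.14. Only 2 of 21 mitosis genes, Bub1b and Aurka, passed, so the 0.019 is the midpoint of a high and a low ratio and not a median of the set. Of the members passing, 0 were 2-fold higher and 0 lower, but 4 of the 5 lower ones were left out by the filter. With 0.1 added to all, 2 were 2-fold lower. Shares of all genes were not computed for the pseudocounts or the other read minimums, so these counts have no background. The summed replication ratio was 0.825 without Pcna, and the summed mitosis ratio 0.592 without Bub1b, a choice made after seeing the data. The mitosis share of member reads in Msx2 CKO and Msx2 WT was 52.6% and 57.0% without Pcna, 37.1% and 45.1% without Mki67, the mitosis gene with the most reads, and 47.1% and 55.4% without Pcna and Bub1b. Without Bub1b alone it was 35.2% and 47.8%. Of single members, 27 of 31 ratios left their counting interval by library totals and 1 by totals without crystallins. Depth limits most mitosis genes, since 13 of 21 have intervals that include 1.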
